A study of Homo sapiens with 18 samples.

Results

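The genes described here are 9 genes of the p53 response, MDM2, MDM4, CDKN1A, BTG2, GDF15, SESN1, ZMAT3, FAS and TP53INP1, chosen by symbol from a table of 58815 genes. All 9 were found by symbol, and 7 of them were among the 12081 genes that passed the filter on expression. GDF15 and BTG2 had too few counts to pass. They were measured in 18 RNA-seq libraries from 3 metastatic derivatives of MDA-MB-231, a cell line from a human breast tumour without hormone receptors or HER2 amplification. The parental line, and so every group, carries mutant p53. LM2 was selected for growth in the lung, BrM3 for growth in the brain and BoM for growth in bone. Each line carried a doxycycline (DOX) inducible hairpin in the pINDUCER10 lentivirus, either the control hairpin shCtrl or shWDR5-1 against WDR5, a WD40-repeat scaffold of chromatin complexes. All cells, controls included, received DOX at 1 μg/mL for 3 days, and each line and hairpin had 3 replicates harvested at different passages. Cells were drug-selected populations infected with the lentivirus, and 1 hairpin against WDR5 was sequenced, so an effect of lowering WDR5 and an effect of that hairpin or population cannot be told apart. The cell line label gives BrM2 where the study's text gives BrM3.

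p53 is a transcription factor that binds a response element near its target genes and raises the transcription of genes for cell cycle arrest, repair and cell death. MDM2 is both a target of p53 and the ubiquitin ligase that marks it for degradation, and MDM4 is a related protein that binds p53 and holds down its activity. When ribosome assembly in the nucleolus is disturbed, free ribosomal proteins such as RPL5 and RPL11 bind MDM2 and keep it from p53, which is called nucleolar stress. Mutant p53 of the kind found in MDA-MB-231 is known for having lost most of the binding to these elements, and several target genes also respond to other transcription factors. The comparison of shWDR5 with shCtrl addresses what these genes do when WDR5 is lowered, a state in which many ribosomal protein genes also change.

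A scan for the p53 response element consensus, a pair of 10-base half-sites with no gap, shows the kind of DNA through which these genes are known to be controlled. It covered 3000 bases on either side of each gene's annotated start on hg38 and allowed 2 mismatches over the 20 bases. The consensus is its own reverse complement, so a search of the plus strand covers both strands. A match was found near 5 of the 9 genes and near 549 of 12062 tested genes, or 4.6%. In each line the capitals mark the C and the G at the core of each half-site.
CDKN1A: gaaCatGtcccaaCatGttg
GDF15: agaCctGcccggaCatGtcc
MDM2: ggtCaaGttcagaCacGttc
BTG2: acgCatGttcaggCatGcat
ZMAT3: aaaCaaGtccagaCatGcct
The CDKN1A match lies at chr6:36676449-36676468 on the plus strand, at an offset of -11 bases from the start of the gene in the GENCODE annotation. It overlaps an annotated UTR, and its offset from the nearest RefSeq start is -2265 bases. The GDF15 match lies at chr19:18373947-18373966 on the plus strand, upstream of the gene at an offset of -784 bases from the GENCODE start and of -12211 bases from the nearest RefSeq start. The MDM2 match lies at chr12:68808923-68808942 on the plus strand, in an intron 746 bases after the start. The BTG2 match lies at chr1:203303642-203303661 on the plus strand, upstream of the gene at an offset of -1849 bases. It overlaps an annotated exon, which is not an exon of BTG2. The ZMAT3 match is given on the minus strand, the strand of the gene, at chr3:179070188-179070207 in an intron 2008 bases after the start. ZMAT3 had 0 mismatches, GDF15 had 1, and CDKN1A, MDM2 and BTG2 each had 2. A match is a stretch of sequence only, and no binding was measured in these cells.

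Total counts per library ranged from 17485841 to 119667013, and mitochondrial genes took 4.37% to 6.97% of them. Levels are given as CPM, the read count of a gene scaled to the library size after TMM normalization. The mesenchymal markers were present, with VIM at 1490 to 2220 CPM, CD44 at 495 to 762 and FN1 at 104 to 1300. Of the epithelial markers, KRT18 was at 262 to 498 CPM, KRT8 at 193 to 445 and KRT19 at 24.1 to 169. KRT7 was at 6.93 to 132 CPM and EPCAM at 4.37 to 10.1. CDH1, KRT5 and KRT14 did not pass 0.598, 0.504 and 0.662 CPM. Of the receptors, ESR1 and PGR did not pass 0.534 and 0.712 CPM, while ERBB2 was at 41.3 to 83 CPM. Of the 4 markers of other cells, the fibroblast gene DCN was at 0 to 0.112 CPM, the leukocyte gene PTPRC at 0.0989 to 1.05, the endothelial gene PECAM1 at 0.844 to 4.65 and the collagen gene COL1A2 at 0 to 6.02 CPM. The summed level of these 4 markers was 6.55 to 8.43 CPM in LM2 shCtrl and 6.20 to 7.17 CPM in LM2 shWDR5. It was 1.53 to 1.91 and 1.87 to 2.38 CPM in BrM3, and 3.36 to 4.19 and 3.93 to 5.37 CPM in BoM, so it was highest in LM2, and its part in the differences between lines was not tested. WDR5 itself was at 112, 128 and 134 CPM in LM2 shCtrl and at 24.2, 24.3 and 20.4 CPM in LM2 shWDR5. It went from 79.1 to 92.9 CPM down to 20.7 to 23.4 CPM in BrM3, and from 87.1 to 90.1 CPM down to 13.9 to 21.95 CPM in BoM. The target of the hairpin was lower in each shWDR5 library than in any shCtrl library.

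With shWDR5, 2 of the 7 tested genes were called on average over the lines, against 35.4% of all tested genes, so the share was near that of all genes. CDKN1A, which encodes the cyclin-dependent kinase inhibitor p21, fell in BoM and on average over the 3 lines, and ZMAT3, an RNA-binding zinc finger protein, rose modestly on average. The negative regulators MDM2 and MDM4 did not pass the test in any line. Among the shCtrl libraries, CDKN1A and TP53INP1 differed between lines by up to 1.79-fold and 2.07-fold.

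The plot of CPM by library shows all 9 genes.

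**Figure D1:**
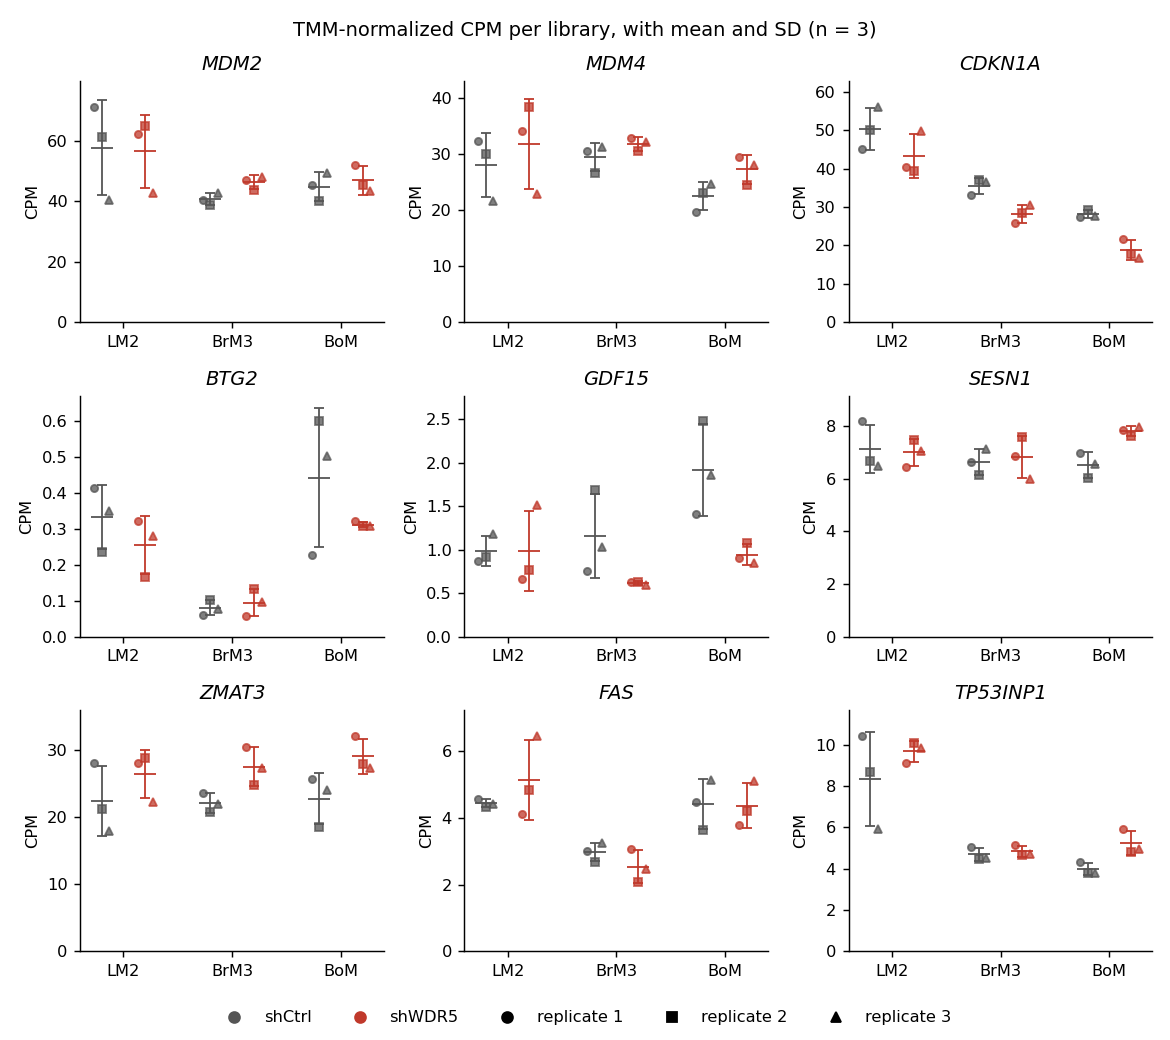
TMM-normalized CPM of the 9 genes in each of the 18 libraries, by line on the x axis, with shCtrl in grey and shWDR5 in red. Marker shapes give the replicate number, and horizontal and vertical bars give the mean and the SD of 3 replicates. CDKN1A is highest in LM2 shCtrl (mean 50.3 CPM) and lowest in BoM shWDR5 (mean 18.8 CPM), while MDM2 and MDM4 spread widely within LM2.

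Levels between genes are compared here per kilobase of the canonical transcript. The counts are of whole genes, and which transcripts were expressed was not checked, so this comparison is approximate. In LM2 shCtrl, CDKN1A was the highest of the 9 at 23.8 ± 2.62 CPM per kb (SD, n = 3), followed by MDM2 at 7.72 ± 2.10. MDM4 at 2.79 ± 0.560 and ZMAT3 at 2.51 ± 0.580 CPM per kb did not differ beyond their spread. TP53INP1 at 1.49 ± 0.403, SESN1 at 1.26 ± 0.162 and FAS at 1.20 ± 0.0317 CPM per kb were also within their spread of each other. GDF15 at 0.820 ± 0.140 and BTG2 at 0.122 ± 0.0329 CPM per kb were the lowest. CDKN1A was also the highest per kb in the other 5 groups, down to 8.86 ± 1.22 CPM per kb in BoM shWDR5. MDM2 was the second highest in each of them, at 5.44 to 7.56 CPM per kb.

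The first role is the control of p53 itself. MDM2 (chr12:68808177-68845544, plus strand) was at 71.3, 61.5 and 40.6 CPM in LM2 shCtrl and at 62.2, 64.9 and 42.6 CPM in LM2 shWDR5. In BrM3 it was at 40.4, 39.0 and 43.0 CPM with shCtrl and at 47.2, 43.7 and 48.2 CPM with shWDR5. In BoM it was at 45.3, 40.0 and 49.5 CPM with shCtrl and at 52.2, 45.3 and 43.3 CPM with shWDR5. The hairpin groups overlapped in LM2 and BoM and were apart, with shWDR5 higher, in BrM3. Replicate 3 was the lowest of its group for MDM2 and MDM4 in both LM2 groups. Its shCtrl library was the deepest of the series at 119667013 counts, while its shWDR5 library had 18108832 counts.

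The log2 fold changes of MDM2 (shWDR5 over shCtrl, edgeR quasi-likelihood test) were -0.02, 0.19 and 0.07 for LM2, BrM3 and BoM, with adjusted p-values of 0.97, 0.56 and 0.83. Averaged over the lines it was 0.08, with a 95% confidence interval from -0.13 to 0.29 and an adjusted p of 0.58. MDM4 (chr1:204516379-204558120, plus strand), the partner of MDM2, had means of 28.0 ± 5.63 and 31.7 ± 8.07 CPM in LM2, 29.5 ± 2.48 and 31.8 ± 1.20 CPM in BrM3, and 22.4 ± 2.51 and 27.2 ± 2.54 CPM in BoM (shCtrl and shWDR5, SD, n = 3). Its log2 fold changes were 0.19, 0.11 and 0.28, and the hairpin groups overlapped in every line. The average was 0.20 (interval -0.01 to 0.40, adjusted p = 0.13). Without replicate 3 of both LM2 groups, left out after its values were seen, the MDM4 average was 0.20 with an adjusted p of 0.030. It also passed without LM2 shWDR5 replicate 3 alone (0.26, adjusted p = 0.021) and with no filter on expression (0.22, adjusted p = 0.048). A fit with a replicate block within line, given at the end, called the MDM4 average too.

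The second role is arrest of the cell cycle. CDKN1A (chr6:36676460-36687337, plus strand) was at 45.0, 49.99 and 56.1 CPM in LM2 shCtrl and at 40.4, 39.4 and 49.8 CPM in LM2 shWDR5. In BrM3 it was at 33.0, 37.0 and 36.5 CPM with shCtrl and at 25.8, 28.4 and 30.5 CPM with shWDR5. In BoM it was at 27.5, 29.3 and 27.7 CPM with shCtrl and at 21.7, 17.8 and 16.8 CPM with shWDR5. The hairpin groups overlapped in LM2, and each shWDR5 library lay below each shCtrl library in BrM3 and in BoM. As in any bulk RNA, a lower level in each cell and fewer cells with the transcript cannot be told apart.

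CDKN1A fell in BoM to 66.7% of shCtrl, a log2 fold change of -0.58 ± 0.12 (SE) with an adjusted p of 0.0033. The log2 fold change was -0.33 ± 0.12 in BrM3 (adjusted p = 0.089) and -0.23 ± 0.12 in LM2 (adjusted p = 0.30). With a replicate block within line, given at the end, the value in BrM3 was called. The average over the 3 lines was -0.38 ± 0.07, with an interval from -0.52 to -0.23 and an adjusted p of 0.00041. Of the transcript sequence of CDKN1A, 58.5% is G or C, and after a correction of each library for GC content, added after the data were seen, the log2 fold change in BoM was -0.38 (adjusted p = 0.010) and the average was -0.25 (adjusted p = 0.0017). Leaving out any 1 of the 18 libraries kept both calls. The antisense gene DINOL shares 4.9% of the exon bases of CDKN1A, and the strand setting of the counts is not given in the sources used here. CDKN1A is not alone in this. The largest antisense overlaps were 9.5% for MDM2, 6.5% for FAS, 5.0% for SESN1, 4.0% for TP53INP1 and 11.2% for WDR5. A gene on the same strand also shares 5.3% of the exon bases of MDM2.

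BTG2 (chr1:203305491-203309602, plus strand), an antiproliferative gene, had between 1 and 43 counts per library and did not pass the filter. In LM2 it was at 0.414, 0.236 and 0.349 CPM with shCtrl and at 0.321, 0.166 and 0.280 CPM with shWDR5. In BrM3 it was at 0.0610, 0.102 and 0.0773 CPM with shCtrl, from 3 or 4 counts each, and at 0.0568, 0.132 and 0.0960 CPM with shWDR5. In BoM it was at 0.227, 0.598 and 0.502 CPM with shCtrl and at 0.321, 0.309 and 0.307 CPM with shWDR5. The hairpin groups overlapped in each line, and with edgeR's filterByExpr in place of the filter the BTG2 log2 fold changes were -0.40, 0.38 and -0.44, with adjusted p-values of 0.63, 0.76 and 0.50. A difference between hairpins was not detectable at this depth.

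The third role is signalling and metabolism under stress. GDF15 (chr19:18374731-18389176, plus strand), a secreted cytokine of the TGF-beta family that many stresses induce, had 11 to 145 counts per library and did not pass the filter. It was at 0.866, 0.912 and 1.18 CPM in LM2 shCtrl and at 0.667, 0.769 and 1.51 CPM in LM2 shWDR5. In BrM3 it was at 0.753, 1.69 and 1.03 CPM with shCtrl and at 0.624, 0.629 and 0.595 CPM with shWDR5. In BoM it was at 1.41, 2.47 and 1.86 CPM with shCtrl and at 0.908, 1.08 and 0.843 CPM with shWDR5. The hairpin groups overlapped in LM2, while the shWDR5 libraries were the lower ones in BrM3 and BoM with no overlap. When filterByExpr let GDF15 into the edgeR fit, it was lower with shWDR5 in BoM by a log2 fold change of -0.998 ± 0.310 (adjusted p = 0.040) and on average by -0.66 ± 0.18 (adjusted p = 0.0096). The values were -0.14 in LM2 (adjusted p = 0.87) and -0.85 in BrM3 (adjusted p = 0.12). These are the values of a gene with few counts that the main filter leaves out.

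SESN1 (chr6:108984309-109094846, minus strand), a sestrin that acts on nutrient signalling through mTORC1, lay between 5.99 and 8.17 CPM in all 18 libraries. Its log2 fold changes were -0.01, 0.03 and 0.26 for LM2, BrM3 and BoM (adjusted p = 0.97, 0.91 and 0.18). In BoM the 3 shWDR5 libraries, at 7.60 to 7.97 CPM, lay above the 3 shCtrl libraries at 6.01 to 6.99 CPM. The average over the lines was 0.09, with an interval from -0.06 to 0.25. SESN1 was the steadiest of the 7 tested genes over the libraries, with a root mean square deviation of 0.134 in log2 CPM, against 0.483 for TP53INP1.

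The fourth role is control of RNA. ZMAT3 (chr3:178960121-179072215, minus strand), which binds RNA and acts on splicing, was at 28.1, 21.2 and 17.9 CPM in LM2 shCtrl and at 28.1, 28.8 and 22.3 CPM in LM2 shWDR5. In BrM3 it was at 23.6, 20.8 and 21.99 CPM with shCtrl and at 30.5, 24.8 and 27.4 CPM with shWDR5. In BoM it was at 25.7, 18.5 and 24.1 CPM with shCtrl and at 32.1, 27.9 and 27.3 CPM with shWDR5. The shWDR5 libraries were all above the shCtrl libraries in BrM3 and BoM, and the groups overlapped in LM2.

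ZMAT3 did not pass the test in any single line, and its log2 fold changes of 0.25, 0.31 and 0.36 for LM2, BrM3 and BoM had adjusted p-values of 0.42, 0.24 and 0.14. On average over the lines it rose by 0.31 ± 0.09 on the log2 scale, or 1.24-fold (interval 0.11 to 0.50, adjusted p = 0.015). This average passed whichever of the 18 libraries was left out. It was 0.31 after the GC correction (adjusted p = 0.00079), where the rise also passed in BrM3 and BoM (0.33 and 0.32, adjusted p = 0.041 and 0.043). With a replicate block within line, given at the end, ZMAT3 was called in BrM3 and BoM as well.

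The fifth role is cell death. FAS (chr10:88953813-89029605, plus strand), the death receptor, was at 4.55, 4.32 and 4.41 CPM in LM2 shCtrl and at 4.10, 4.84 and 6.44 CPM in LM2 shWDR5. Its means were 2.97 ± 0.280 and 2.54 ± 0.495 CPM in BrM3 and 4.41 ± 0.738 and 4.36 ± 0.665 CPM in BoM (shCtrl and shWDR5, SD, n = 3). The hairpin groups overlapped in every line, and the average log2 fold change was -0.02 with an interval from -0.25 to 0.20. TP53INP1 (chr8:94925972-94949378, minus strand), a nuclear body and autophagy protein that promotes p53-dependent death, was at 10.4, 8.69 and 5.95 CPM in LM2 shCtrl and at 9.12, 10.1 and 9.86 CPM in LM2 shWDR5. In BoM it was at 4.32, 3.80 and 3.81 CPM with shCtrl and at 5.90, 4.82 and 4.98 CPM with shWDR5, with no overlap. Its log2 fold changes were 0.23, 0.04 and 0.40 in LM2, BrM3 and BoM (adjusted p = 0.47, 0.91 and 0.12), and the average was 0.22 (interval 0.02 to 0.43, adjusted p = 0.080). That average passed with filterByExpr (0.26, adjusted p = 0.044) and after the GC correction (0.21, adjusted p = 0.046), and without LM2 shCtrl replicate 1 (0.28, adjusted p = 0.016). The replicate block within line, given at the end, called the TP53INP1 average too. Without LM2 shCtrl replicate 3 the value in BoM, 0.40, had an adjusted p of 0.048.

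**Figure D2:**
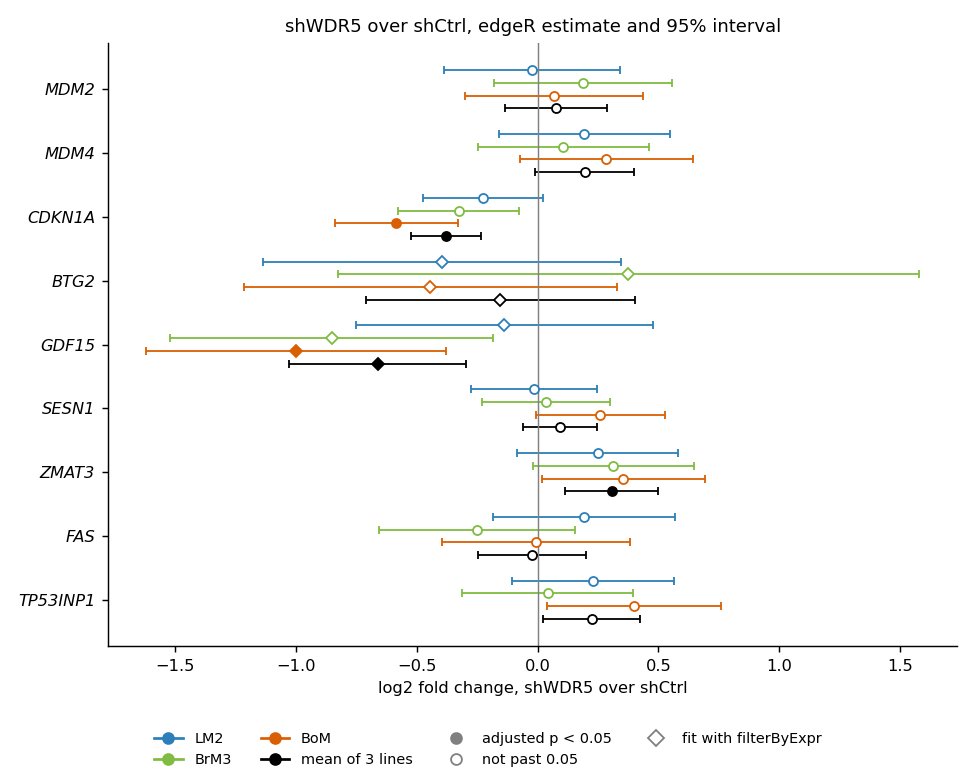
Log2 fold change of shWDR5 over shCtrl on the x axis for each of the 9 genes, in LM2 (blue), BrM3 (green), BoM (orange) and as the mean of the 3 lines (black). Bars are 95% intervals for the 7 genes past the filter and 2 SE for GDF15 and BTG2 (diamonds, from the fit with filterByExpr), and filled symbols have an adjusted p under 0.05. Among the 7 genes past the filter the filled symbols are CDKN1A in BoM (-0.58) and on average (-0.38) and ZMAT3 on average (0.31), and the filled diamonds are GDF15 in BoM and on average.

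The counts of genes called among the 7 were near the shares over all tested genes. In LM2, 0 of 7 passed the edgeR test, where 6.26% of all tested genes passed (1.48% higher and 4.78% lower). At an unadjusted p under 0.05 there were 0 of 7, against 2429 of 12081 tested genes. DESeq2 called 0 of 7, against 1142 of 12081. In BrM3, 0 of 7 passed, against 10.7% of all tested genes (2.87% higher and 7.87% lower). At an unadjusted p under 0.05 there was 1 of 7, against 3012 of 12081 tested genes. DESeq2 called 0 of 7, against 1768 of 12081. In BoM, 1 of 7 passed, CDKN1A, which was lower, against 16.1% (5.41% higher and 10.7% lower). At an unadjusted p under 0.05 there were 3 of 7, against 3649 of 12081 tested genes. On average over the lines 2 of 7 passed, CDKN1A lower and ZMAT3 higher, against 35.4% of all tested genes. Groups were apart for 0 of 7 genes in LM2, 3 of 7 in BrM3 and 4 of 7 in BoM, against 25.2%, 35.5% and 30.2% of all tested genes. The genes apart in BrM3 were MDM2 and ZMAT3 higher and CDKN1A lower (15.8% and 19.7% of all tested genes), and those in BoM were SESN1, ZMAT3 and TP53INP1 higher and CDKN1A lower (12.8% and 17.3%). The median log2 fold change of the 7 genes was 0.19, 0.04 and 0.26 in LM2, BrM3 and BoM, where the median of all tested genes was -0.0009, -0.0054 and 0.0152.

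Whether the lines responded differently was tested as the difference between their fold changes. Of the 7 genes, 0 passed for any pair of lines by edgeR, and 0 passed by DESeq2. At an unadjusted p under 0.05 the counts were 0 for BrM3 against LM2, 1 for BoM against LM2 and 0 for BoM against BrM3. At the same unadjusted threshold there were 352, 625 and 349 of 12081 tested genes for these pairs. At an adjusted p under 0.05, 0.00828%, 0% and 0.00828% of all tested genes passed by edgeR. Among the 7 genes, the one at an unadjusted p under 0.05 was CDKN1A. Its log2 fold change was lower in BoM than in LM2 by -0.36 (interval -0.71 to -0.003, adjusted p = 0.96). So the fall of CDKN1A in BoM was not shown to differ from that in the other lines.

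The lines were also compared without the hairpin against WDR5, where a large share of all genes differed. In shCtrl libraries 4 of the 7 tested genes were lower in BrM3 than in LM2 and 0 were higher, against 23.4% of all tested genes lower and 47.6% called in either direction. Between BoM and LM2, 2 of 7 were lower in BoM and 0 higher, against 25.8% lower, 25.9% higher and 51.8% in either direction. Between BoM and BrM3, FAS was higher and CDKN1A lower in BoM, against 17.8% higher, 19.8% lower and 37.6% in either direction. Over all tested genes, the shCtrl libraries of 2 lines were apart for 58.9% between BrM3 and LM2 (28.6% lower in BrM3), 56.1% between BoM and LM2 (26.9% lower in BoM) and 54.5% between BoM and BrM3 (27.3% lower in BoM). In either direction, the share of the 7 genes was above that of all genes for BrM3 against LM2, where every gene called was lower. It was below that of all genes for the other pairs. These are counts of 7 genes only. The 3 comparisons share libraries and are not independent of each other.

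CDKN1A was highest in LM2 and lowest in BoM, with means of 50.3 ± 5.55, 35.5 ± 2.15 and 28.2 ± 0.988 CPM in LM2, BrM3 and BoM shCtrl, and no library of one line overlapped those of another. BrM3 was lower than LM2 by a log2 difference of -0.51 (adjusted p = 0.0019), and BoM was lower than LM2 by -0.84 (adjusted p = 1.5e-05). The step from BrM3 to BoM was -0.33 (adjusted p = 0.035) and was the least firm. It was -0.17 after the GC correction (adjusted p = 0.18), and with no filter it had an adjusted p of 0.066. Leaving out 1 library removed the call in 5 of 18 fits. These 5 left out BrM3 shCtrl replicate 2 or 3 or one of the BoM shCtrl replicates, and gave adjusted p-values from 0.050 to 0.11.

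TP53INP1 fell in the same order, with 8.36 ± 2.26, 4.69 ± 0.325 and 3.98 ± 0.294 CPM. It was lower in BrM3 than in LM2 by -0.82 (adjusted p = 0.00052) and lower in BoM than in LM2 by -1.05 (adjusted p = 5e-05), while BoM and BrM3 did not pass the test (-0.24, adjusted p = 0.28). FAS was lowest in BrM3, at 2.69 to 3.25 CPM, below LM2 (-0.57, adjusted p = 0.015) and BoM, which was above BrM3 by 0.56 (adjusted p = 0.025). The difference of FAS between BrM3 and LM2 lost the call without BrM3 shCtrl replicate 2 (adjusted p = 0.062), and that between BoM and BrM3 lost it in 4 of 18 such fits, without BrM3 shCtrl replicate 1 or 2 or BoM shCtrl replicate 1 or 3 (adjusted p = 0.058 to 0.11), and with no filter (adjusted p = 0.065).

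MDM2 was lower in BrM3 than in LM2 by -0.50 (adjusted p = 0.025), although 1 LM2 library, at 40.6 CPM, lay within the range of BrM3. That call was lost without LM2 shCtrl replicate 1 or 2 or BrM3 shCtrl replicate 1 or 2 (adjusted p = 0.062 to 0.14). The difference of MDM2 between BoM and LM2 was -0.36 (adjusted p = 0.091), and without LM2 shCtrl replicate 3 it was -0.57 (adjusted p = 0.0055). Without the same library the difference of MDM4 between BoM and LM2, -0.32 with all libraries (adjusted p = 0.12), was -0.48 (adjusted p = 0.026). Between BoM and BrM3 the MDM4 libraries were apart, at 19.7 to 24.6 CPM in BoM and 26.7 to 31.3 CPM in BrM3, with a log2 difference of -0.40 (adjusted p = 0.072). Without replicate 3 of LM2 shCtrl or of LM2 shWDR5, which enter through the shared estimate of spread, its adjusted p was 0.046 or 0.029. SESN1 and ZMAT3 did not pass the test for any pair of lines, and their log2 differences lay between -0.12 and 0.04. With filterByExpr, BTG2 was lower in BrM3 than in LM2 by -1.99 (adjusted p = 0.0013) and higher in BoM than in BrM3 by 2.40 (adjusted p = 0.00055), from 3 or 4 counts in each BrM3 library. GDF15 was higher in BoM than in LM2 by 0.92 in the same fit (adjusted p = 0.014).

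**Figure D3:**
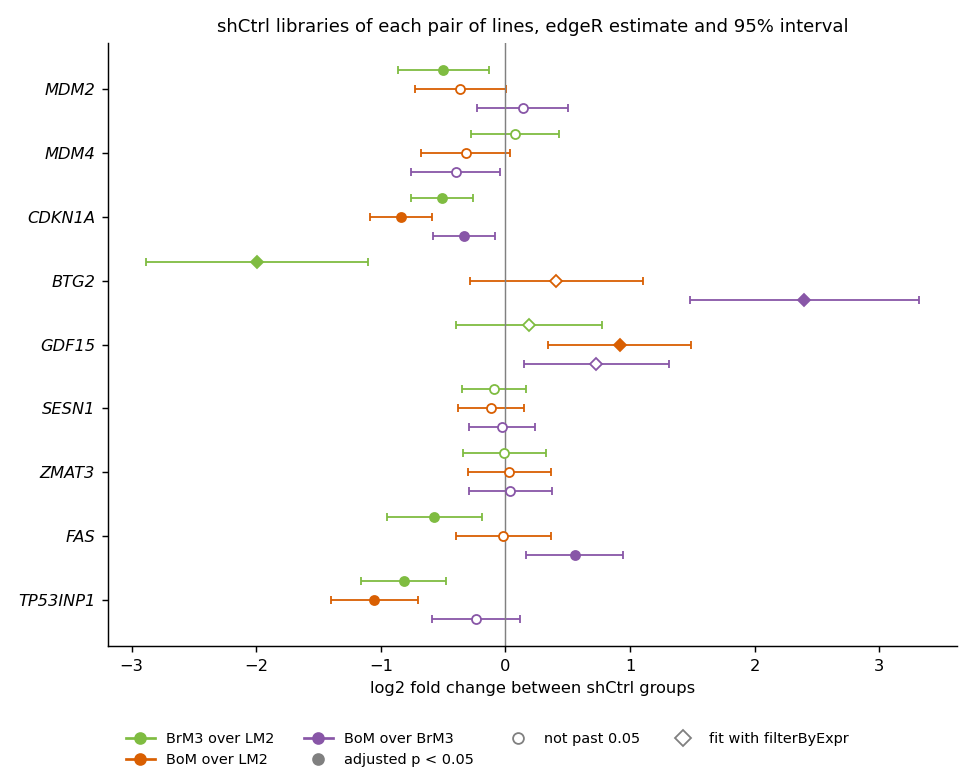
Log2 fold change between the shCtrl libraries of each pair of lines on the x axis, for BrM3 over LM2 (green), BoM over LM2 (orange) and BoM over BrM3 (purple). Bars are 95% intervals, or 2 SE for GDF15 and BTG2 (diamonds, from the fit with filterByExpr), and filled symbols have an adjusted p under 0.05. CDKN1A and TP53INP1 lie furthest below 0 for BoM over LM2 (-0.84 and -1.05) among the genes past the filter.

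Other genes of the pathway were taken from lists of p53 targets by role, p53 regulators and genes of nucleolar stress. Of 57 other p53 target genes, 49 were tested. On average over the lines 8 rose (16.3%) and 10 fell (20.4%), against 15.6% and 19.9% of all tested genes, and their median log2 fold change was -0.02. With the GC correction, 13 rose and 10 fell, and among all genes 3776 rose and 2482 fell, against 1880 and 2400 without it. By line, 1 rose and 3 fell in LM2, 1 rose and 4 fell in BrM3, and 1 rose and 6 fell in BoM. As shares of the 49 these were 2.04% and 6.12%, 2.04% and 8.16%, and 2.04% and 12.2%, against 1.48% and 4.78%, 2.87% and 7.87%, and 5.41% and 10.7% of all tested genes. The lists by role below are small, and each average count is read against the same 15.6% higher and 19.9% lower over all tested genes.

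Of 6 tested targets for cell cycle arrest besides CDKN1A and BTG2, 4 rose on average and 0 fell, with a median of 0.29. PLK2, a polo-like kinase, rose in all 3 lines, by 0.35, 0.34 and 0.39 on the log2 scale (adjusted p = 0.023, 0.019 and 0.0051), from 207 to 263 CPM in LM2, 195 to 246 in BrM3 and 414 to 545 in BoM. Over all tested genes, 0.753% rose in all 3 lines. The call of PLK2 in LM2 was kept in 6 of 9 alternative fits. GADD45A, a growth arrest and DNA damage gene, rose on average by 0.34 (adjusted p = 0.0047), as did E2F7 by 0.26 and PLK3 by 0.32. CDKN1A moved in the opposite direction to these 4.

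Of 15 tested apoptosis targets 2 rose and 2 fell on average, with a median of 0.002, or 13.3% each way against 15.6% and 19.9% of all tested genes. PHLDA3, an inhibitor of AKT, fell by 0.67 (adjusted p = 0.0041) and FDXR, a mitochondrial reductase, by 0.42, while AEN rose by 0.20 and TNFRSF10B, a death receptor like FAS, by 0.17. The pro-apoptotic genes BAX, at 0.01, and BBC3, at -0.21, did not pass the test (adjusted p = 0.93 and 0.62), and these 2 were named after their values were seen. Of 6 tested repair targets, DDB2, which recognises UV damage, fell by 0.36 (adjusted p = 0.00023) and 0 rose. XPC was at -0.15 and FBXO22 at -0.06. Of 8 tested metabolic targets, SESN2, the relative of SESN1, rose by 0.40 (adjusted p = 0.0047) and FUCA1, a lysosomal fucosidase, fell by 0.63 (adjusted p = 1.1e-06).

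Of 14 other targets, 1 rose and 6 fell on average. CYFIP2, a component of the WAVE complex, fell in all 3 lines, by 0.79, 1.00 and 1.70 on the log2 scale, from 2.21 to 1.28 CPM in LM2, 15.0 to 7.43 in BrM3 and 5.62 to 1.72 in BoM. INKA2, an inhibitor of the kinase PAK4, also fell in all 3 lines, by 0.65, 0.73 and 0.63. Over all tested genes, 3.25% fell in all 3 lines. The calls of INKA2 were kept in 6 of 9 alternative fits in LM2, 8 of 9 in BrM3 and 6 of 9 in BoM, and that of CYFIP2 in LM2 in 8 of 9. ANKRA2 fell on average by 0.39, TSKU by 0.48 and TRIM22 by 0.31, and KITLG, named here as the gene of the list that rose, rose by 0.41.

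Of 16 tested regulators of p53, 2 rose and 2 fell on average, with a median of 0.13, or 12.5% each way against 15.6% and 19.9% of all tested genes. PPP1R13B, which encodes ASPP1, a partner of p53 in inducing death, fell in all 3 lines, by 0.52, 0.59 and 0.64, and its calls were kept in 6 of 9 alternative fits in LM2 and 8 of 9 in BrM3 and in BoM. TP53BP1 fell on average by 0.44, USP10, a deubiquitinase of p53, rose by 0.19, and COP1, a ubiquitin ligase, rose by 0.14 (adjusted p = 0.046). The call of COP1 was kept in 6 of 8 alternative fits. CDKN2A, whose ARF product inhibits MDM2, had 0 to 19 counts per library and was not tested. Of the relatives of p53, TP73 was at 5.43, 2.56 and 1.55 CPM in LM2, BrM3 and BoM shCtrl and fell on average by 0.55 with shWDR5 (adjusted p = 0.028), while TP63, at 1.62, 0.0735 and 0.195 CPM in these groups, was not tested.

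Of 11 genes for ribosomal proteins that bind MDM2, 7 fell and 4 rose on average over the lines, and their median was -0.55. The shares were 63.6% and 36.4%, against 19.9% and 15.6% of all tested genes. The list was chosen with earlier results of these data known, so these shares describe it and are not a test. RPL5 fell by 0.79, 0.59 and 0.64 on the log2 scale in LM2, BrM3 and BoM, from 1060 to 615 CPM in LM2, 1130 to 755 in BrM3 and 1360 to 874 in BoM. RPL11, its partner in binding MDM2, fell by 0.75 in LM2 and 0.52 in BoM, and its value in BrM3 was -0.39 (adjusted p = 0.052). RPL26 fell by 1.43, 1.37 and 1.47, from means of 42.5 to 46.0 CPM in the shCtrl groups. RPL23, RPS3 and RPS14 also fell in all 3 lines, and RPS7 fell on average by 0.52. The 4 that rose on average were RPS25, RPS26, RPS27 and RPS27A, by 0.36 to 0.50. Ribosomal protein genes have many near-identical copies in the genome, so their counts are uncertain where reads were split or dropped.

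Of 15 tested genes for nucleolar proteins, 8 rose and 1 fell on average, with a median of 0.26. The shares were 53.3% and 6.67%, against 15.6% and 19.9% of all tested genes. They too describe a list chosen with earlier results known and are not a test. NPM1, an abundant nucleolar chaperone, rose by 0.42 in BrM3 and 0.33 in BoM (adjusted p = 0.0033 and 0.0096) and was at 0.26 in LM2 (adjusted p = 0.068). GNL3, also called nucleostemin, rose on average by 0.42, and RPF2, which helps place RPL5 and RPL11 into the ribosome, by 0.40. PARN, named as the gene that fell, fell by 0.21. By line, 4 rose in BrM3 and 3 in BoM, against 2.87% and 5.41% of all tested genes. In LM2, 0 of the 15 passed by edgeR, against 6.26% of all tested genes. At an unadjusted p under 0.05 there were 5 of the 15, against 2429 of 12081 tested genes. DESeq2 called 2 of the 15, against 1142 of 12081.

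**Figure D4:**
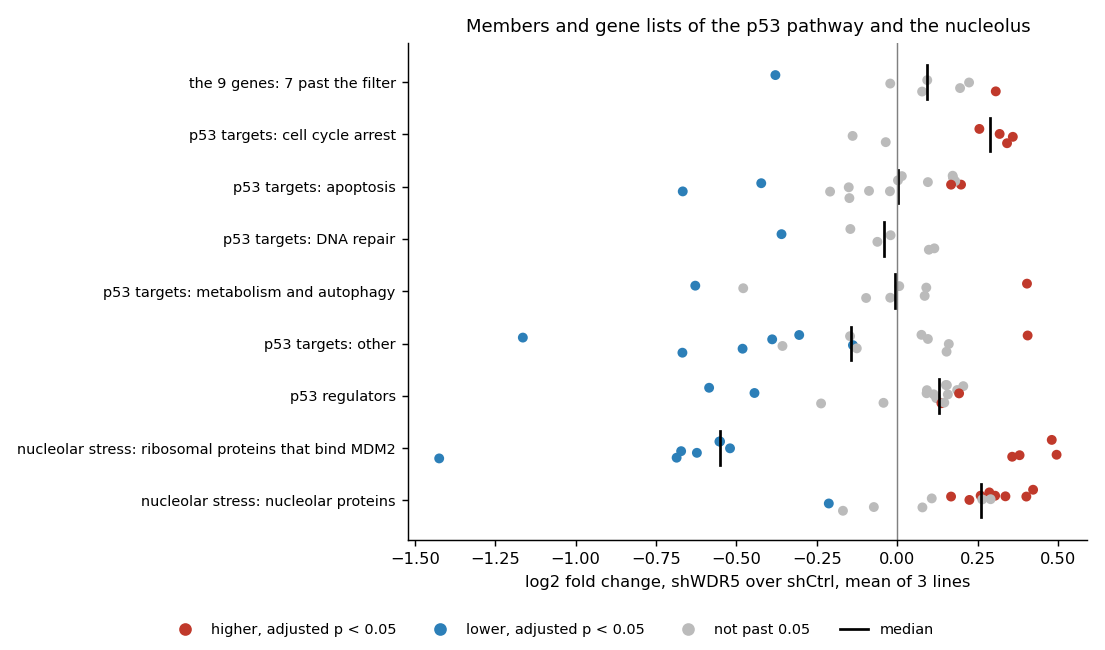
Log2 fold change of shWDR5 over shCtrl, averaged over the 3 lines, on the x axis for the 7 tested genes of the 9 and for 8 lists of the p53 pathway and the nucleolus. Each point is a tested gene, red where higher and blue where lower with an adjusted p under 0.05 and grey otherwise, and the black bar is the list's median. The medians of the target lists lie between -0.14 and 0.29, and that of the ribosomal proteins that bind MDM2 is -0.55.

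Genes whose pattern over the 18 libraries was nearest to a member were found by the root mean square difference of centred log2 CPM. For MDM2, whose own deviation was 0.257, the nearest were EDEM1 (0.103) and ZNF587 (0.111). For CDKN1A, whose own deviation was 0.478, the nearest were RASGRF1 (0.124) and ZSCAN18 (0.125).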

How the data were processed

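The 18 libraries came from a stranded TruSeq kit and were sequenced from both ends, 3 per line and hairpin. The authors used STAR 2.7.0 on hg38 for alignment and gene counting, and deposited raw read counts for 58815 genes. The authors' log2 fold changes and adjusted p-values per line were deposited too and were not used. Spike-in RNA was added by cell number, but the counts table holds 0 spike-in rows, so levels are relative within a library. Samples were grouped by title and cell line label. The source labels name another line for 12 of the 18 samples and were not used, and the control columns, named differently from the label, were matched as the only hairpin other than shWDR5. There were 0 unused sample columns.

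The criterion of HTSFilter was recomputed (highest mean Jaccard index between replicates, 0.970, at a normalized count of 146), which kept 12081 genes. edgeR 4.0.16 in R 4.3.3 fitted 6 groups over 18 libraries by quasi-likelihood with TMM scaling and 12 residual degrees of freedom, with Benjamini-Hochberg adjustment over all tested genes, and a gene under 0.05 was called. SEs come from the F statistic. Alternatives were DESeq2 1.42.0, RLE scaling, filterByExpr, no filter, a replicate block, only the groups compared, and each library left out. Those added after seeing the data were a GC correction (loess, span 0.5), with and without the block, and LM2 replicate 3 of both hairpins left out. The fit was tested on simulated counts. Of genes given a log2 change of 0.5, it recovered 32% in LM2, 21% in BrM3, 31% in BoM and 76% on average. Of genes given a log2 change of 1, it recovered 92%, 92%, 88% and 100%. A gene that did not pass in a single line is therefore not shown to be unchanged. No 2 replicates of a group were alike to within counting error (chi-square per gene 5.15 to 90.6).

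The 9 genes and the gene lists were chosen with earlier results of these data known. Named besides the 9 genes are WDR5, CDKN2A, TP63 and TP73, from each list the genes called in all 3 lines and up to 3 more with the smallest adjusted p, and the 2 genes nearest in pattern to MDM2 and CDKN1A. FDXR, KITLG, PARN, BAX, BBC3 and the ribosomal proteins that rose besides RPS26 were named after their values were seen. Coordinates and transcript lengths come from GENCODE release 44 on GRCh38, and sequences from the hg38 genome.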

Additional observations from a re-analysis of the deposited data

How the results depend on the processing

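Counts are of the 9 genes called. With filterByExpr, and likewise with no filter, 2 genes were called in BoM, CDKN1A and GDF15, and 4 on average over the lines, CDKN1A, ZMAT3, GDF15 and, with filterByExpr, TP53INP1 or, with no filter, MDM4. With no filter and with the GC correction, 4 were called between BoM and LM2 shCtrl. The GC correction gave 1 in BrM3 and 2 in BoM. Without LM2 replicate 3 of both hairpins, 4 were called between BoM and LM2 shCtrl. Leaving out 1 library gave 0 in LM2, 0 in BrM3, 1 to 2 in BoM, 2 to 3 on average, 2 to 4 for BrM3 against LM2 shCtrl, 2 to 4 for BoM against LM2, 0 to 3 for BoM against BrM3, and 0 for the differences between lines. DESeq2 and RLE scaling gave the same numbers of calls as the main fit in every comparison. Over all genes, 4280 of 12081 were called on average in the main fit and 6258 of 12081 with the GC correction. With filterByExpr 5875 of 18428 were called on average, and with no filter 5676 of 41236. In BoM the calls were 1946, 3548, 2323 and 2333 in the same order, and the GC correction gave 3066 in BrM3. Between BoM and LM2 shCtrl 6256 were called in the main fit, 8472 with no filter and 7572 with the GC correction. The number was 5776 without LM2 replicate 3. GDF15 and BTG2 are limited by depth.

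Replicate numbers were not used as a pairing in the main fit. Same-numbered libraries of a line correlated at -0.178 to 0.729 in their deviations, with a mean of 0.361. Libraries of different numbers correlated at -0.632 to 0.523, with a mean of -0.195. Not every library correlated best with its own number. Whether same-numbered libraries shared a passage is not given in the sources used here. With the replicate block within line, the genes called were 2 in BrM3, 2 in BoM and 4 on average, and with the GC correction as well 1 in LM2, 2 in BrM3, 3 in BoM and 4 on average. Under the block alone, the genes gained were CDKN1A (-0.33, adjusted p = 0.024) and ZMAT3 (0.31, adjusted p = 0.050 after rounding) in BrM3, ZMAT3 in BoM (adjusted p = 0.020), and MDM4 and TP53INP1 on average (adjusted p = 0.018 and 0.047). Over all genes, the block took calls from 756 to 1434 in LM2 and from 1298 to 2277 in BrM3. It took them from 1946 to 3172 in BoM and from 4280 to 5668 on average. With the GC correction as well, they were 3518 in LM2, 4550 in BrM3, 4906 in BoM and 7353 on average.

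Signs turned for values near 0, and none of these was called. MDM2 in LM2 was 0.013 with filterByExpr, 0.002 with no filter, 0.009 with the GC correction and 0.006 with that and the block. SESN1 in LM2 was 0.013 with DESeq2, 0.000 with RLE scaling, 0.018 with filterByExpr, 0.005 with no filter, 0.002 with only the groups compared, 0.006 with the GC correction and 0.007 with that and the block. MDM2 in BoM was -0.027 with the GC correction, with or without the block. FAS in BoM was 0.012 with DESeq2, 0.010 with RLE scaling, 0.017 with filterByExpr and 0.010 with no filter, and on average 0.012 with filterByExpr and 0.003 with no filter. For BrM3 against LM2 shCtrl, ZMAT3 was 0.002 with filterByExpr, 0.024 with no filter and 0.002 with the replicate block across lines, and MDM4 was -0.079 without LM2 replicate 3. For BoM against LM2 shCtrl, ZMAT3 was -0.048 with the GC correction and -0.110 without LM2 replicate 3. Among differences of response, MDM2 in BoM against LM2 was -0.036 with the GC correction and -0.032 with the block too, ZMAT3 in BoM against BrM3 was -0.010 and -0.006, and TP53INP1 in BrM3 against LM2 was 0.027 without LM2 replicate 3. The cause was not tested.

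Leaving out 1 library turned the sign in these ranges. For the knockdown, MDM2 ranged from -0.225 to 0.156 in LM2 and -0.018 to 0.140 in BoM, SESN1 from -0.078 to 0.089 in LM2 and -0.054 to 0.126 in BrM3, and FAS from -0.132 to 0.101 in BoM and -0.080 to 0.024 on average. For BrM3 against LM2 shCtrl, MDM4 ranged from -0.079 to 0.193, SESN1 from -0.156 to 0.011 and ZMAT3 from -0.150 to 0.180. For BoM against LM2, ZMAT3 ranged from -0.111 to 0.219 and FAS from -0.125 to 0.108, and for BoM against BrM3, SESN1 from -0.077 to 0.034 and ZMAT3 from -0.058 to 0.172. For the differences of response, BrM3 against LM2 gave MDM4 -0.270 to 0.074, CDKN1A -0.185 to 0.011, SESN1 -0.055 to 0.141, ZMAT3 -0.126 to 0.205 and TP53INP1 -0.369 to 0.018. BoM against LM2 gave MDM2 -0.089 to 0.292, MDM4 -0.092 to 0.251, ZMAT3 -0.083 to 0.247 and TP53INP1 -0.012 to 0.374, and BoM against BrM3 gave ZMAT3 -0.089 to 0.131.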
